A study of Mus musculus with 4 samples.

Results

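The striated muscle myosin heavy chains are the motor subunits of the thick filament in skeletal and cardiac muscle. They were measured here in lungs of SA and WT mice as 8 genes, Myh1, Myh2, Myh3, Myh4, Myh6, Myh7, Myh7b and Myh8, out of 46603 genes in the unfiltered expression table. The genes were taken by their symbol, 1 row each. The set, and Myh7 as the gene held against the others, were selected on the log2 CPM levels of these libraries, so all differences between the genotypes and between the libraries of a genotype are given as a description. The SA mice carried the Ifnar1 S526A allele, which puts alanine in place of a serine in a chain of the type I interferon receptor, and the WT mice had the wild-type Ifnar1 gene. All were littermates of 6 to 8 weeks on the C57BL/6 background. All received 100 µl of medium conditioned by B16F10 mouse melanoma cells into a vein, 3 times a week for 3 weeks. Total RNA of lung tissue was sequenced after removal of ribosomal RNA in 2 SA and 2 WT samples. Mice without the conditioned medium were not analysed here.

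Each muscle fibre is built on a few heavy chain isoforms, and the isoform sets how fast the fibre contracts. In mice Myh6 encodes the alpha cardiac chain and Myh7 the beta chain, which serves both the fetal ventricle and slow skeletal fibres. Myh2, Myh1 and Myh4 encode the chains of the adult fast fibre types IIA, IIX and IIB, Myh3 and Myh8 the embryonic and perinatal chains, and Myh7b a divergent slow chain. In rodents a sleeve of cardiac muscle runs along the pulmonary veins into the lung, and skeletal muscle lies next to the organ in the chest wall and diaphragm.

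The 8 genes lie at 3 loci of GRCm38 (GENCODE M21 annotation). Myh3, Myh2, Myh1, Myh4 and Myh8 stand in this order on chromosome 11, plus strand, from 67078300 to 67308634, a span of 230.3 kb. Myh6 and Myh7 lie in tandem on the minus strand of chromosome 14, from 54941921 to 54994626, a span of 52.7 kb. Myh7b lies alone on chromosome 2, plus strand, from 155611212 to 155634307.

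The coding sequences of Myh6 and Myh7 are 91.7% identical, which bears on how far their reads can be told apart. Of the 50-base windows of the Myh7 transcript, 22.2% occur unchanged in the Myh6 transcript, and the longest run common to both has 245 bases. The stretch printed here is a place where the coding sequences part, with the 26 differing bases of 75 in capitals. It lies in exon 27 of 41 of Myh7 (chr14:54980325-54980399, minus strand) and in exon 25 of 39 of Myh6 (chr14:54952250-54952324, minus strand), within the coding sequence of both.
Myh7: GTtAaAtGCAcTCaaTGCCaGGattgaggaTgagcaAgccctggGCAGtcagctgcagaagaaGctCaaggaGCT
Myh6: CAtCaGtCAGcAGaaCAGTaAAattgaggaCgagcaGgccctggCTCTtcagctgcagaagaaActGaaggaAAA
Among the fast and perinatal genes, Myh1 is 91.0% identical to Myh2, 90.2% to Myh4 and 89.3% to Myh8, and 26.1% of the 50-base windows of Myh1 recur in another of the 8 genes. Windows shared with another heavy chain made up 3.7% of Myh3 and 0.0% of Myh7b. The sources used here give neither the read length nor the treatment of reads that match several genes. The split of reads between Myh6 and Myh7, and among Myh1, Myh2, Myh4 and Myh8, is uncertain to that degree.

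Within the 250 bases before the start sites of the RefSeq promoters (GRCm38.p6), the promoters of Myh2, Myh1, Myh4 and Myh8 hold the same 14-base run, TTCTAATTATATCC. It occurs in 4 of the 32851 promoters of the table, or 0.0122%, with both strands searched, and those 4 are these neighbours. The run was looked for because they share it, so the count describes these promoters and no more. It is in capitals in the 62-base windows printed here, which lie at chr11:67170878-67170939, chr11:67199918-67199979, chr11:67237630-67237691 and chr11:67277046-67277107 on the plus strand.
Myh2: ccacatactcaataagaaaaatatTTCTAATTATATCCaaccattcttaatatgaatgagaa
Myh1: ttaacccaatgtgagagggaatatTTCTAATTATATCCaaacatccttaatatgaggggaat
Myh4: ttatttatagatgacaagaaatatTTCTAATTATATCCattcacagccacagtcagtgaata
Myh8: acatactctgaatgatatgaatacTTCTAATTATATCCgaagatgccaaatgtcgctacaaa
The cardiac pair was searched for the core of the M-CAT motif, GGAATG, which TEAD factors bind in muscle genes; it does not overlap the run above. Both genes hold it on the given strand, starting at position -206 from the start site of Myh6 and at -201 from 1 of the 2 start sites listed for Myh7. It is in capitals in the windows at chr14:54966768-54966841 and chr14:54994782-54994855, minus strand.
Myh6: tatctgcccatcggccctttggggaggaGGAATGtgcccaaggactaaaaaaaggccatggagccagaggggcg
Myh7: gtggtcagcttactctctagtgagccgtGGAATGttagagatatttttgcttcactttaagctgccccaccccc
The core occurs on either strand in 12.6% of all promoters of this length, and also in those of Myh1 and Myh4.

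The introns of 3 of the genes carry microRNAs known from muscle, printed here (RefSeq, GRCm38.p6) with their seed, bases 2 to 8, in capitals. The first lies in intron 31 of Myh7, the second in intron 29 of Myh6 and the last in intron 19 of Myh7b, each on the strand of its host.
mmu-miR-208b-3p: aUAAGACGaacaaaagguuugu
mmu-miR-208a-3p: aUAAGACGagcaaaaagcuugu
mmu-miR-499-5p: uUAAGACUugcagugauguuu
The microRNAs of Myh7 and Myh6 have the seed UAAGACG and that of Myh7b has UAAGACU. The libraries were not made for small RNA, and the hairpin genes had few reads. Mir208b had 1 and 4 reads in SA lungs and 3 and 1 in WT lungs, Mir208a had 0 and 2 in SA lungs and 0 and 0 in WT lungs, and Mir499 had 0 in all 4 libraries. At these counts no difference between the genotypes was detectable.

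The libraries held 27381916 and 38378936 gene reads in SA and 30611946 and 31645038 in WT, so that 3 reads, taken as the floor of detection, stood for 0.0782 to 0.11 CPM, the reads of a gene scaled to the library total. Levels are log2 CPM as deposited, and differences are SA minus WT with the standard error (SE) of a limma fit across all genes and Benjamini-Hochberg adjusted p-values. The fit on the 12850 genes of the filtered table called 40 genes at an adjusted p under 0.05, or 0.311% of them, 21 of them (0.163%) upward and 19 downward. With median centring of the libraries it called 476, of which 169 were upward and 307 downward. Markers of lung were high in every library, with the surfactant gene Sftpc at 14.08 and 13.77 log2 CPM in SA and 14.12 and 13.77 in WT. The S526A change is a single residue, which levels per gene do not show, so these levels do not check the genotype labels.

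**Figure D1:**
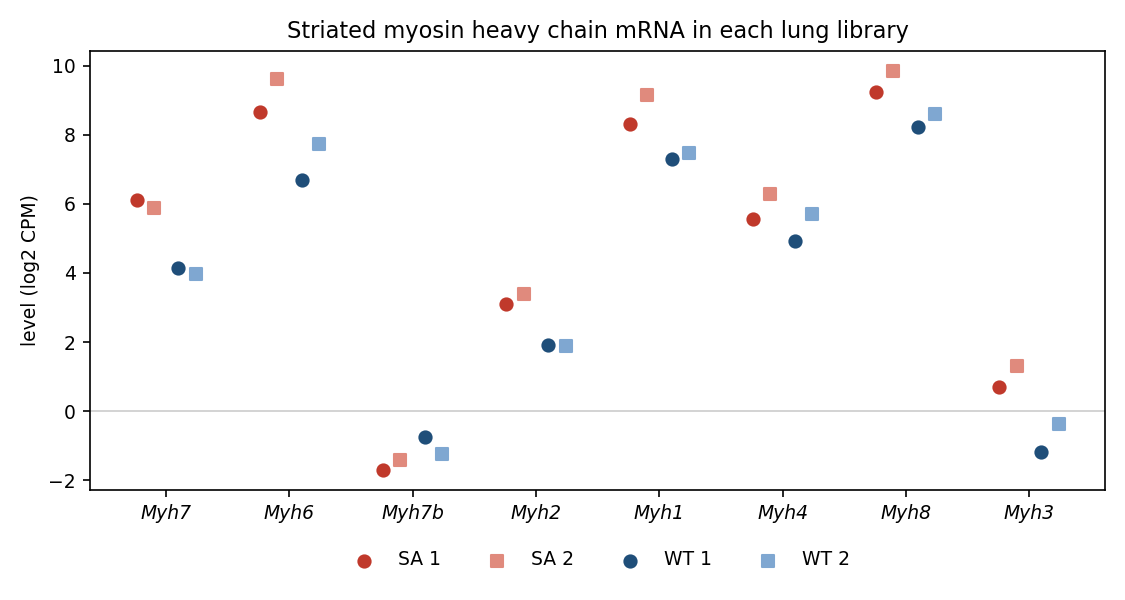
Level of each heavy chain gene in log2 CPM (vertical axis) in each library, with SA in red and WT in blue, a circle for replicate 1 and a square for replicate 2. Both SA points lie above both WT points for Myh7, Myh6, Myh2, Myh1, Myh8 and Myh3, the genotypes overlap for Myh4, and for Myh7b both SA points lie below.

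Heavy chain mRNA was more abundant in SA lungs for most of the genes. Of the 8, 6 were in the filtered table, and in 5 of these, all but Myh4, both SA libraries were above both WT libraries, as they were for 37.8% of all genes of that table. Their median difference was 1.35, against 0.06 over all genes tested. In the fit, 1 of the 6, Myh7, was called, 5 had an unadjusted p under 0.05 upward, as did 16.4% of all genes, and 5 were more than 1 log2 unit higher, as were 3.80%. Since the genes were picked with this contrast known, nothing is read from these counts. The 8 genes together took 1453 and 2425 CPM in the SA libraries and 609 and 851 CPM in the WT libraries. In whole lung tissue, fewer cells of a type and less RNA per cell cannot be told apart.

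Of the cardiac chains, Myh7 had the more even values. Its level was 6.12 and 5.89 log2 CPM in SA lungs, from 1905 and 2281 reads, against 4.14 and 3.97 in WT lungs, from 541 and 494 reads. Libraries of the same genotype lay within 0.23 of each other and the genotypes were far apart. The difference was 1.95 ± 0.12 (SE, n = 2 per group), its 95% interval ran from 1.64 to 2.27, and the adjusted p was 0.041 (limma). The call did not stand when any library was left out. The differences were then 1.84 without SA 1, 2.07 without SA 2, 2.04 without WT 1 and 1.86 without WT 2. Such a fit leaves 1 library in a group and called few genes of the whole table, so this loss is not particular to Myh7. In the annotation, 13.3% of the exon bases of Myh7 are overlapped on the other strand by antisense genes, of which Mhrt had at most 40 reads in a library. Whether counting used strand is not stated in these sources.

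Myh6, the main heavy chain of adult mouse heart, was at 8.66 and 9.62 log2 CPM in SA lungs, from 11058 and 30244 reads, against 6.68 and 7.74 in WT lungs, from 3133 and 6773 reads. Both SA libraries were above both WT libraries, but within each genotype replicate 2 was about 1 log2 unit above replicate 1. The difference of 1.93 ± 0.50 (SE) was thus close in size to that of Myh7 and did not pass (adjusted p = 0.111, limma), with a 95% interval from 0.59 to 3.27. Myh7b had 8 and 14 reads in SA lungs and 18 and 13 in WT lungs, or -1.69 and -1.40 against -0.73 and -1.23 log2 CPM. It was outside the filtered table; in the same fit on the unfiltered table, where 4.75% of genes were called, its difference was -0.57 ± 0.56 (SE; adjusted p = 0.876, limma).

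The fast chains differed in how far the genotypes stood apart. Myh2, the IIA chain, was at 3.10 and 3.40 log2 CPM in SA lungs against 1.92 and 1.88 in WT lungs, from 234, 404, 115 and 116 reads. Its difference of 1.35 ± 0.16 (SE) had an adjusted p of 0.0502 (limma), just outside the threshold. Myh1, the IIX chain, was at 8.32 and 9.14 in SA lungs and 7.29 and 7.46 in WT lungs, from 8739, 21668, 4782 and 5582 reads. The SA libraries differed by more than the WT libraries, and the difference of 1.35 ± 0.29 (SE) did not pass (adjusted p = 0.088, limma). Myh4, the IIB chain, was at 5.55 and 6.28 in SA lungs and 4.93 and 5.72 in WT lungs, from 1286, 2989, 933 and 1666 reads. Here WT 2 was above SA 1, and the difference was 0.59 ± 0.37 (SE; adjusted p = 0.361, limma), with a 95% interval from -0.41 to 1.60. It rested on single libraries, at 0.96 without SA 1, 0.23 without SA 2, 0.20 without WT 1 and 0.99 without WT 2.

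The developmental chains were far apart in depth. Myh8, the perinatal chain, was at 9.24 and 9.85 log2 CPM in SA lungs and 8.22 and 8.60 in WT lungs, from 16521, 35357, 9118 and 12248 reads. The genotypes did not overlap, and the difference was 1.13 ± 0.26 (SE; adjusted p = 0.092, limma). Myh3, the embryonic chain, had 44 and 94 reads in SA lungs and 13 and 24 in WT lungs, or 0.70 and 1.30 against -1.18 and -0.37 log2 CPM. It was outside the filtered table, and in the fit on the unfiltered table it rose by 1.78 ± 0.36 (SE; adjusted p = 0.00694, limma). That call was lost without SA 2, where the difference was 1.48 (adjusted p = 0.116), without a mean-variance trend (adjusted p = 0.433) and with voom weights on the reads (adjusted p = 0.137).

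**Figure D2:**
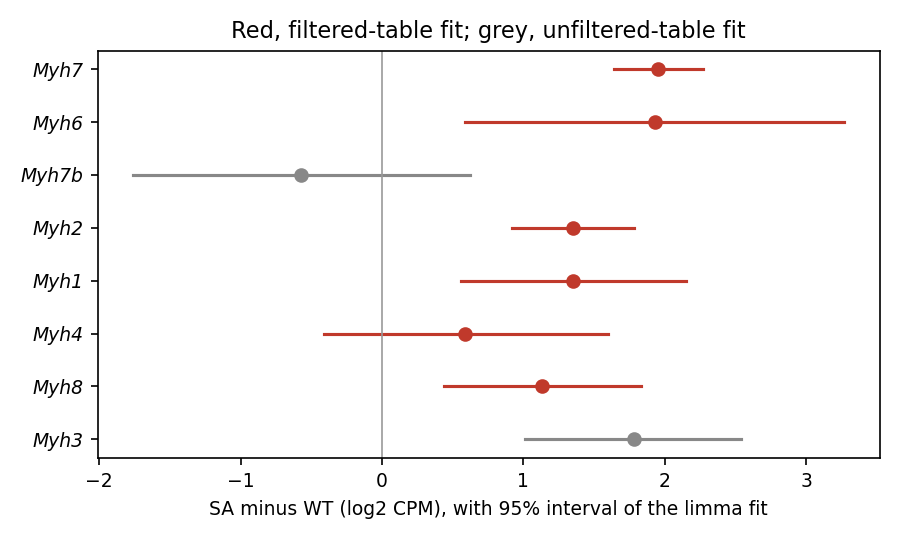
SA minus WT difference of each gene in log2 CPM (horizontal axis) with the 95% interval of the limma fit on 2 SA and 2 WT libraries, red for genes in the filtered table and grey for the fit on the unfiltered table. The interval of Myh7, from 1.64 to 2.27, is the narrowest of the 8, and those of Myh7b and Myh4 span 0.

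The libraries of a genotype also differed from each other, and Myh7 was lower in replicate 2 of both genotypes. Replicate 2 minus replicate 1 was -0.23 log2 CPM for Myh7 in SA and -0.18 in WT. As ratios of CPM these were 0.854, with a 95% counting interval from 0.804 to 0.908, in SA and 0.883, from 0.780 to 1.00, in WT; such intervals are exact and cover counting error only. For Myh6 the same steps were 0.96 in SA and 1.06 in WT, ratios of 1.95 and 2.09. Over the other 5 genes of the filtered table the median step was 0.73 in SA and 0.38 in WT. Myh4 stepped by 0.73 in SA and 0.79 in WT, Myh8 by 0.61 in SA and 0.38 in WT, Myh1 by 0.82 in SA and 0.18 in WT, and Myh2 by 0.30 in SA and -0.04 in WT, where its counting interval for the ratio, 0.747 to 1.27, spans 1. Thus 4 of the 6 were higher in replicate 2 of both genotypes, as were 30.0% of all genes of the table, and Myh7 alone was lower in both, as were 34.9%. Over all genes the median step was -0.01 in each genotype, with 5th and 95th percentiles of -0.32 and 0.73 in SA and of -0.28 and 0.75 in WT. The steps of Myh7 lay inside these ranges and those of Myh6 outside both. Outside the filtered table, Myh3 stepped by 0.60 in SA and 0.81 in WT, and Myh7b by 0.28 in SA and -0.50 in WT, on few reads.

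**Figure D3:**
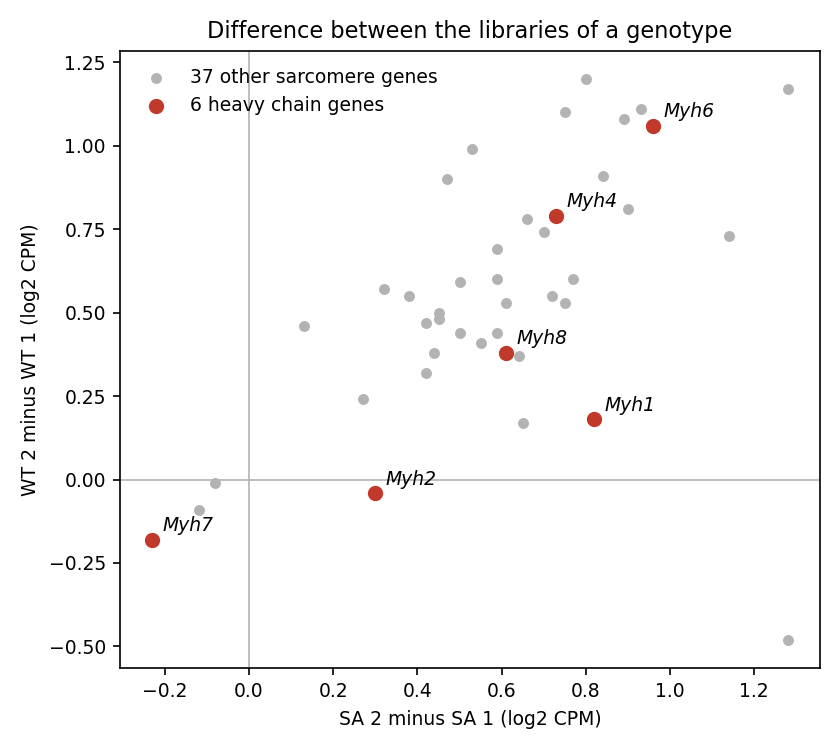
Replicate 2 minus replicate 1 in log2 CPM within SA (horizontal axis) and within WT (vertical axis) for the 6 heavy chain genes of the filtered table (red) and 37 other sarcomere genes (grey). Myh7 lies at -0.23 and -0.18 in the lower left, near 2 grey points, while the other heavy chains lie to the right, at steps of up to 0.96 in SA.

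Set against Myh6, its neighbour on the chromosome, Myh7 differed between the replicate numbers and little between the genotypes. There were 17.2 and 7.54 Myh7 reads per 100 Myh6 reads in SA 1 and SA 2, and 17.3 and 7.29 in WT 1 and WT 2. On the log2 scale the mean ratio differed between SA and WT by 0.02, and between replicate 2 and replicate 1 by -1.19 in SA and -1.24 in WT. Among the fast chains, there were 14.7 and 13.8 Myh4 reads per 100 Myh1 reads in SA lungs against 19.5 and 29.9 in WT lungs, with no overlap between the genotypes. Myh1 against Myh8 did overlap, at 52.9 and 61.3 reads per 100 in SA lungs and 52.5 and 45.6 in WT lungs. These ratios were not tested.

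Compared per length, 3 genes made up most of the heavy chain mRNA. Per kilobase of annotated exon, Myh6 was at 60.0 and 117 RPKM (CPM divided by the length in kilobases) in SA lungs and 15.2 and 31.8 in WT lungs. Myh1 was at 50.2 and 88.9 in SA lungs and 24.6 and 27.8 in WT lungs, and Myh8 at 51.3 and 78.3 in SA lungs and 25.3 and 32.9 in WT lungs. Myh6 ranked first in both SA libraries and Myh8 first in both WT libraries, while the order of the other places among these 3 changed from library to library, so the order within them is not settled by these data. Myh7 and Myh4 held the next places in every library, from 1.81 to 8.08 RPKM for Myh7 and from 5.07 to 13.0 for Myh4, and Myh7 was above Myh4 in SA 1 only. Myh2 stayed at 0.514 to 1.48 RPKM, and Myh3 and Myh7b were below 0.41 RPKM throughout.

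As shares of the reads per kilobase of all 8 genes, the cardiac chains Myh6 and Myh7 made up 38.1% and 40.5% in SA lungs and 23.7% and 32.4% in WT lungs. The adult fast chains Myh1, Myh2 and Myh4 made up 33.1% and 33.8% in SA lungs and 41.4% and 35.7% in WT lungs. The developmental chains Myh3 and Myh8 made up 28.8% and 25.7% in SA lungs and 34.8% and 31.8% in WT lungs. In each class the genotypes did not overlap, with the cardiac share higher in SA and the others lower, and no test was made of 1 library against another. Shares are parts of a whole, so a higher cardiac share lowers the others, and these are not separate observations. In RPKM, Myh1 and Myh8 were themselves higher in SA lungs, as given above. The length used matters for Myh8, whose annotated exons cover 11772 bases, over a coding length of 5811. By coding length Myh8 ranked first in all 4 libraries, with a mean share of 39.8% in SA lungs and 47.2% in WT lungs, and the cardiac share was 32.6% and 35.0% in SA lungs and 19.7% and 27.0% in WT lungs.

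**Figure D4:**
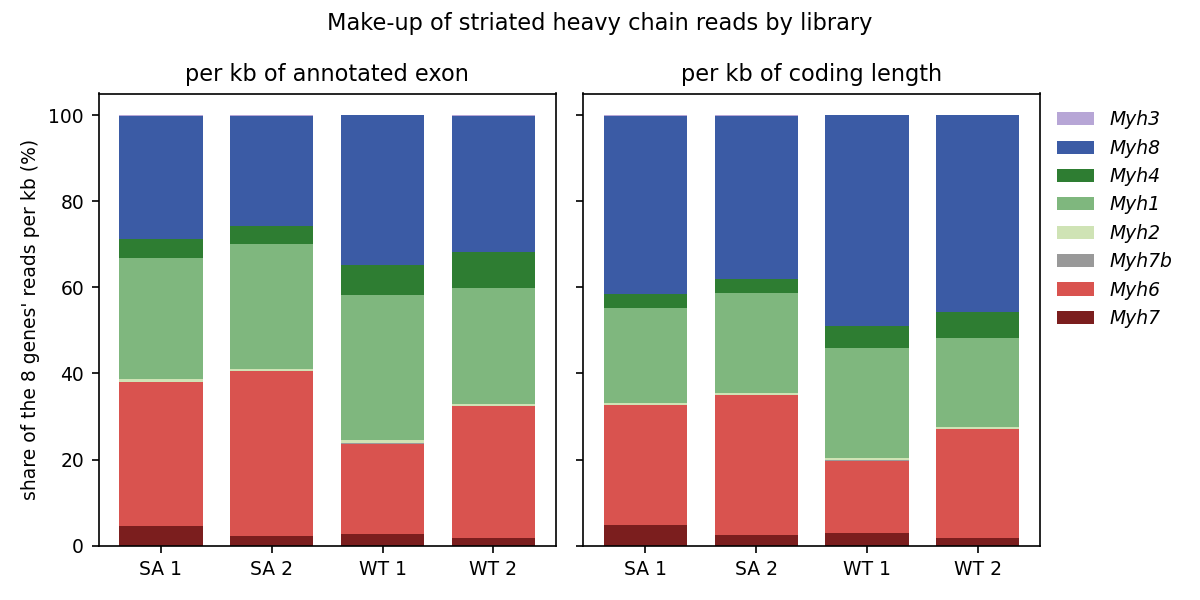
Share of each gene in the reads per kilobase of the 8 heavy chains, in percent (vertical axis), for each library, per kilobase of annotated exon on the left and of coding length on the right. The red cardiac part is taller in both SA libraries than in both WT libraries under either length, and Myh8 (blue) takes more by coding length.

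The genes with profiles most like each heavy chain were taken over the 4 libraries as the 5 with the smallest root mean square (RMS) difference of log2 CPM after each gene was centred on its own mean. They describe 4 values, and many genes can share such a profile. For Myh7 the nearest were Ifi44, Ifit1, Irf7, Zbp1 and Oas1a, all genes known to be induced by interferon, at RMS differences of 0.0883 to 0.182. Ifi44 was at 5.44 and 5.21 log2 CPM in SA lungs and 3.62 and 3.48 in WT lungs. For Myh6 they were Tnni3, Tnnt2, Myl7, Lgr6 and Myl4, at 0.0754 to 0.124; Tnni3 and Tnnt2 encode cardiac troponins and Myl7 and Myl4 atrial light chains. The cardiac pair thus had no gene in common among its 5 nearest. Tnni3 was at 6.40 and 7.33 log2 CPM in SA lungs and 4.52 and 5.64 in WT lungs.

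Myh8 had the closest neighbours, Myl1, Ank1, Jsrp1, Itgb1bp2 and Casq1, at 0.0101 to 0.0391. Myl1, a light chain of fast muscle, was at 5.68 and 6.32 log2 CPM in SA lungs and 4.67 and 5.05 in WT lungs. Those of Myh1 were Rpl3l, Fhl2, Pgam2, Mybpc1 and Tnnt3, at 0.0518 to 0.128, among them the fast troponin T gene Tnnt3 and the muscle phosphoglycerate mutase gene Pgam2. Myh2 had both kinds near it, the interferon-induced Slfn8 and Oasl2 beside Alpk3, Cacng1 and Ppp1r3a, at 0.0607 to 0.124. Those of Myh4 were Xirp1, Fabp5, Pi16, Fam213b and Fam213a, at 0.0378 to 0.0445.

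**Figure D5:**
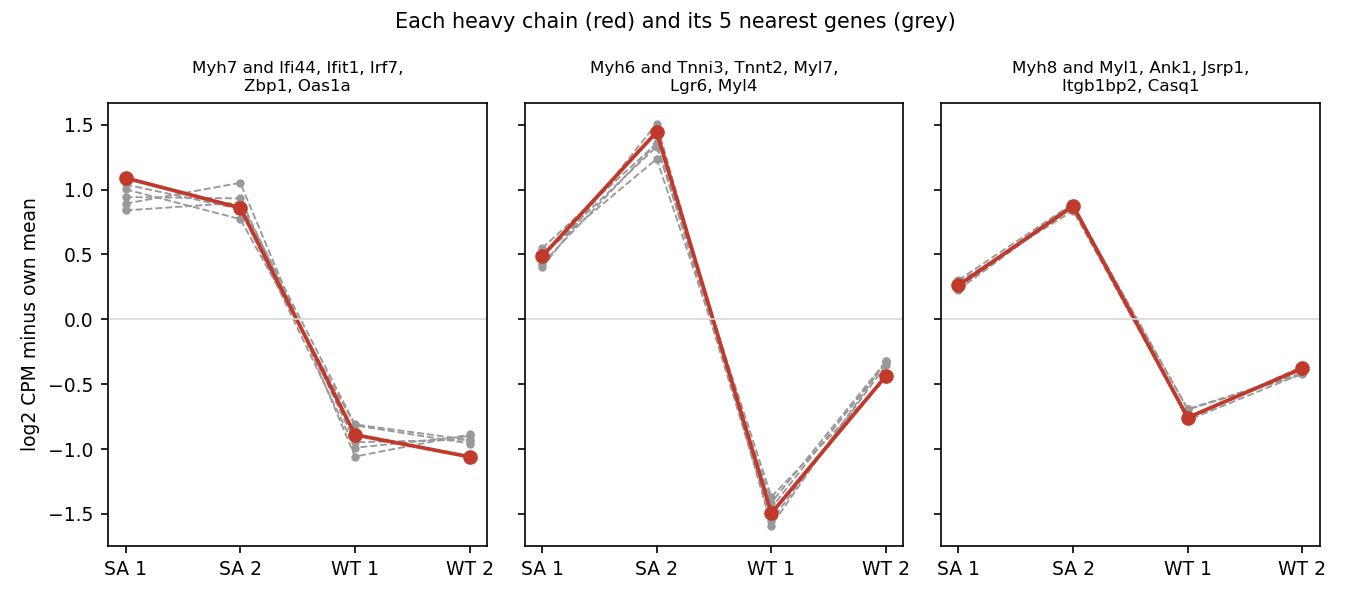
Log2 CPM minus the gene's own mean (vertical axis) in the 4 libraries for Myh7, Myh6 and Myh8 (red) and for the 5 genes nearest to each (grey, named above each panel). Myh7 and its neighbours are near level within a genotype, whereas the lines of Myh6 and Myh8 are higher in replicate 2 than in replicate 1 of both genotypes.

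The partners of the heavy chains in the sarcomere were mostly higher in SA lungs, and none passed the test in the filtered table. Of 43 genes listed for light chains, thick filament partners, thin filament and Z disc, 37 were in the filtered table, and 35 of these were higher in SA and 2 lower, with a median difference of 1.21, while 60.4% of all genes were higher. Quantile normalization kept these counts but turned the signs of Nebl and Tnni1. None was called by limma at the adjusted threshold, and 33 had an unadjusted p under 0.05, all upward, as did 16.4% of all genes. With voom weights, and with median centring, 1 was called, Mylk2, a kinase of light chains, named after its value was seen. Both SA libraries were above both WT libraries for 34 of the 37, and for 37.8% of all genes. All 7 measured light chain genes were higher, with a median of 1.34. The most abundant were the atrial light chains Myl7, with a difference of 1.83 ± 0.43 (SE), and Myl4, with 1.74 ± 0.46, then the fast regulatory chain Mylpf with 1.15 ± 0.20. Of the thick filament partners, 10 of 10 were higher, with a median of 1.30, led in level by the giant spring protein gene Ttn at 1.08 ± 0.36 and the M band gene Myom1 at 1.21 ± 0.23. In the thin filament and Z disc 18 of 20 were higher, with a median of 1.17, among them the skeletal actin gene Acta1 at 1.15 ± 0.20 and the cardiac actin gene Actc1 at 0.89 ± 0.29.

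The steps of these partners were mostly upward. Of the 37 sarcomere genes, 34 were higher in replicate 2 of both genotypes, as were 30.0% of all genes, with median steps of 0.59 in SA and 0.55 in WT. Lower in both, like Myh7, were Tpm3, named after its values were seen, and Nebl. These differed between the genotypes by only -0.06 ± 0.06 and -0.07 ± 0.08 (SE), and the sign of Nebl turned under quantile normalization. Outside muscle, 6 of 8 lung markers were lower in replicate 2 of both genotypes, as were 34.9% of all genes. Their median steps were -0.24 in SA and -0.19 in WT, near those of Myh7. Of 3 measured blood markers, 2 were lower in both, with median steps of -0.26 in SA and -0.09 in WT.

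Of 8 markers of slow muscle 6 were in the filtered table. All 6 were higher in SA, though the sign of Tnni1 turned under quantile normalization, and the median was 1.26. The highest in CPM were the calcium pump gene Atp2a2, with a difference of 0.68 ± 0.32 (SE), Myl3 with 1.14 ± 0.23, the calsequestrin gene Casq2 with 1.55 ± 0.40 and the Z disc gene Myoz2 with 1.51 ± 0.39. The following genes of the list were named after their values were seen. Myl2, the light chain that goes with Myh7 in slow fibres and in the ventricle, had 1 and 1 reads in SA lungs and 1 and 0 in WT lungs, below the floor. The troponins of the list were unequal. Tnni1 had 12 and 42 reads in SA lungs and 19 and 14 in WT lungs. Tnnt1 had 44 and 76 in SA lungs and 37 and 46 in WT lungs. Their differences were 0.40 ± 0.53 (SE) for Tnni1 and 0.42 ± 0.27 for Tnnt1, the latter in the unfiltered table. Tnnc1, which slow and cardiac muscle share, had 664 and 1290 reads in SA lungs and 245 and 474 in WT lungs. Its difference was 1.38 ± 0.36 (SE). Myl3 is also on the ventricular list, so higher values over the slow list do not set slow skeletal fibres apart from heart muscle. The fast list had 12 of 12 measured genes higher, and a median of 1.21. Of the measured genes, 4 of 6 slow and 10 of 12 fast ones had an unadjusted p under 0.05 upward, as did 16.4% of all genes, and limma and voom called 0 of either. Ckm, the muscle creatine kinase gene, led it at 8.26 and 8.78 log2 CPM in SA lungs and 6.86 and 7.49 in WT lungs.

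Of the heart lists, 6 of 6 measured atrial genes were higher, with a median of 1.78, although Nr2f2 at 0.06 ± 0.07 (SE) turned sign under median centring and quantile normalization. Sln, which encodes sarcolipin, was at 6.17 and 6.85 log2 CPM in SA lungs and 4.21 and 5.08 in WT lungs. The summed level of the 8 atrial genes was 486 and 812 CPM in SA lungs and 159 and 270 in WT lungs, with Bmp10 at 0 reads in all 4 libraries. That of the 6 ventricular genes was 112 and 150 CPM in SA lungs and 48.7 and 69.3 in WT lungs, nearly all from Myl3, with Irx4 at 0 reads in all 4. A gene at 0 reads is below the floor of 3 reads and not shown to be absent. The 13 pan-cardiac genes summed to 1507 and 2455 CPM in SA lungs and 703 and 1121 in WT lungs, and 10 of the 11 measured were higher. Ttn, also counted above among the thick filament partners, led this sum. It was at 9.50 and 10.20 log2 CPM in SA lungs and 8.40 and 9.14 in WT lungs. Among the genes of these 3 lists in the filtered table, limma and voom called 0. An unadjusted p under 0.05 upward (limma) was found for 5 of 6 atrial, 1 of 2 ventricular and 9 of 11 pan-cardiac genes, against 16.4% of all genes. Of the 2 ventricular genes the other was Irx4, which had no reads to compare, so the filtered table did not follow level. Hey2 and Kcnip2 differed by 0.70 ± 0.20 and 0.67 ± 0.27 (SE) in the unfiltered table, uncalled. With 138 and 142 reads in SA lungs and 89 and 76 in WT lungs, Hey2 was nonetheless outside the filtered table. Outside that table, the natriuretic peptide gene Nppb differed by 3.38 ± 0.60 (SE; adjusted p = 0.00236) and Tbx20, named after its value was seen, by 1.21 ± 0.25 (adjusted p = 0.00878), both called by limma in the unfiltered table. There 4.75% of genes were called with the trend, 0 genes without it and 6 with voom. The 10 listed genes of myogenesis that had a row summed to 12.8 and 16.7 CPM in SA lungs and 5.68 and 8.12 in WT lungs, and none was in the filtered table. In the unfiltered table limma called 2 of them, Musk, a kinase of the nerve-muscle junction, with a difference of 1.13 ± 0.23 (SE; adjusted p = 0.00801) and the myogenic factor Myf6 with 1.37 ± 0.29 (adjusted p = 0.00943). How far the amount of cardiac or skeletal muscle in each sample made the heavy chain values was not tested.

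The other myosin heavy chain genes were measured beside them. Myh13, the sixth gene of the chromosome 11 cluster, which starts at 67321658 just past Myh8, had 22 and 27 reads in SA lungs and 26 and 21 in WT lungs, with a difference of 0.00 ± 0.39 (SE, unfiltered table). Myh15 had 1 and 2 reads in SA lungs and 1 and 0 in WT lungs, below the floor. The smooth muscle chain Myh11 was at 7.67 and 7.90 log2 CPM in SA lungs and 7.32 and 7.37 in WT lungs, a difference of 0.44 ± 0.09 (SE). The non-muscle chain Myh9 was at 9.85 and 9.91 in SA lungs and 10.38 and 10.30 in WT lungs, a difference of -0.46 ± 0.10, and Myh10 and Myh14 differed by -0.30 ± 0.07 and -0.20 ± 0.08. None of these 4 was called by limma or voom, with adjusted p from 0.0858 to 0.221 (limma) and 3 at an unadjusted p under 0.05, against 27.3% of all genes. Of 8 smooth muscle markers 7 were higher, with a median of 0.44; limma and voom called 0, and 6 had an unadjusted p under 0.05 upward, where the shares of all genes were 60.4% higher and 16.4% with such a p.

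Of the genes for folding and turnover of myosin, 5 of 6 measured were higher in SA, with a median of 0.83; limma and voom called 0 of the 6, and 5 had an unadjusted p under 0.05 in either direction, as did 27.3% of all genes. Outside the filtered table, limma called the other 2 of the list in the unfiltered table, where it called 4.75% of genes. Named after their values were seen, these are the muscle ubiquitin ligase genes Trim63 and Trim55. Trim63 had a difference of 1.38 ± 0.20 (SE, adjusted p = 0.000414, limma) and Trim55 one of 1.35 ± 0.29 (adjusted p = 0.0111, limma). Over the unfiltered table limma called 0 genes without the trend, and voom called 6. Smyd1, a methyltransferase needed for thick filament assembly, was at 4.70 and 5.34 log2 CPM in SA lungs and 3.50 and 3.99 in WT lungs, with a difference of 1.28 ± 0.29 (SE). Unc45a, a myosin chaperone of many tissues, differed by -0.19 ± 0.05. The regulators known to act on heavy chain genes had no common direction, with 8 of 15 higher, and a median of 0.02 that turned to -0.07 under median centring. Limma called 0 and 9 had an unadjusted p under 0.05, against 27.3% of all genes. Voom called 3, Tead1 and, named after their values were seen, Nfatc1 and Six4, and Mef2a was called with median centring. Eya1, outside the filtered table and also named after its value was seen, differed by 0.80 ± 0.21 (SE; adjusted p = 0.0346, limma, unfiltered table). Tead1, a TEAD factor, was at 5.87 and 5.95 log2 CPM in SA lungs and 6.52 and 6.49 in WT lungs, a difference of -0.59 ± 0.06 (SE; adjusted p = 0.0502, limma). Mef2a, a muscle transcription factor also present elsewhere, differed by -0.48 ± 0.08, and Purb, a repressor of cardiac myosin genes, by -0.21 ± 0.06. Of 8 lung markers 2 were higher and 6 lower, with a median of -0.13, and of 3 measured blood markers 1 was higher and 2 lower, with a median of -0.14; limma called 0 of either, 2 lung markers and 0 blood markers had an unadjusted p under 0.05, and voom and median centring called the lung marker Foxj1. Those 2 lung markers, named after their values were seen, differed in opposite directions. The endothelial gene Cldn5 was at 8.41 and 8.14 log2 CPM in SA lungs and 9.45 and 9.10 in WT lungs (adjusted p = 0.0631, limma), and the ciliated cell gene Foxj1 at 7.16 and 7.17 in SA lungs and 6.14 and 6.41 in WT lungs, a difference of 0.89 ± 0.10 (SE; adjusted p = 0.0502, limma).

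Among the non-coding genes at the loci, Mhrt, the antisense transcript that overlaps Myh7, had 18 and 40 reads in SA lungs and 6 and 13 in WT lungs. Its steps of 0.64 in SA and 1.01 in WT were upward, unlike those of Myh7, and its difference was 1.49 ± 0.54 (SE; adjusted p = 0.16, limma, unfiltered table). Myhas, antisense to Myh1 and over 8.1% of its exon bases, had 7 and 18 reads in SA lungs and 0 and 2 in WT lungs. The heavy chain genes they overlap had from 494 to 21668 reads.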

How the data were processed

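Strand-specific libraries of lung total RNA were made after ribosomal RNA removal, per the labels' protocols. Per the submitters' processing notes, the tools included Subread, featureCounts and limma, and the build was GRCm38; the sources used here give no versions, annotation release or filter rule. The authors deposited log2 CPM values in a filtered table of 12850 genes and an unfiltered table of 46603. The deposited log2 values equal log2 of CPM with 0.5 added to each read count and 1 to the total. When this was undone, 100.0% of genes came out as whole reads, within 0.001 read. As reads carry no molecular identifiers, intervals and the floor of 3 reads cover counting error only.

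SA was compared with WT by limma 3.58.1 (R 4.3.3) with a mean-variance trend, two-sided, Benjamini-Hochberg over all genes of the table, threshold 0.05. The fit was checked on simulated reads with the same dispersion for all genes and no shift shared between libraries. These data differ from that setting, so the check does not give their error rates. The series describes 2 biological replicates per genotype and its labels name no animals, so the p-values speak only to the spread among the 4 libraries, which may be technical. The smallest exact permutation p for 2 against 2 is 0.333, so every p rests on the limma model. Count-level analysis used voom on the recovered reads. Names, lengths and loci came from GENCODE M21. The genes named are the 8 heavy chains, the 5 most similar genes of each measured one (mean of at least 1 log2 CPM, no unnamed models), and the 4 most abundant or undetected genes of each list. The members and lists were chosen with earlier results of these data known. The alternatives were a replicate block, the unfiltered table, a minimum mean, median centring, quantile normalization, no trend, another pseudocount, voom, leaving out each library, and coding length.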

Additional observations from a re-analysis of the deposited data

How the results depend on the processing

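No difference of a heavy chain changed sign under any alternative run. Myh7 kept its direction in 12 alternatives, between 1.84 and 2.07 (1.84 to 2.07 over the libraries left out), and lost its call in 6 of them, namely with each library left out, under quantile normalization (1.87, adjusted p = 0.0785, limma) and with no trend (1.95, adjusted p = 0.0904). The number of genes called over the table, 40, became 415 among genes with a mean of 1 log2 CPM or more, 2213 in the unfiltered table, 476 with median centring (169 higher and 307 lower, against 21 and 19), 0 with quantile normalization (3157 at an unadjusted p under 0.05), 1 with no trend, 268 with voom, and 0 to 6 with a library left out. The pairing of the replicate numbers is not stated in the labels and rests on 2 pairs, so the block is no part of the main results. With the replicate block 3179 genes were called, and the adjusted p of Myh6, Myh2, Myh1, Myh4 and Myh8 ran from 0.000554 to 0.00512 (limma). The steps of SA and WT correlated at r = 0.44 over 12850 genes, and at 0.64 over the 12041 with a mean of at least 1 log2 CPM. Myh2 also passed at a mean of at least 1 (adjusted p = 0.0463) and with median centring (0.0452), and Myh6, Myh2, Myh1 and Myh8 in the unfiltered table (8.08e-05 to 0.000373). The cause of these changes was not tested. By coding length the mean share of Myh8 was 39.8% in SA and 47.2% in WT, that of Myh6 in SA 30.2%, and that of Myh1 22.6% in SA and 23.2% in WT, since annotated exons outside the coding sequence differ between the genes. Below about 100 reads (Myh3, Myh7b, Mhrt) depth limits what can be told.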
